A study of Mus musculus with 96 samples.

Results

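A set of 9 genes of the interferon and nucleic acid sensing system were followed through the day in mouse epidermis: the sensors Mb21d1 and Ddx58, the transcription factors Irf7, Irf9 and Stat2, the effectors Isg15, Ifit1 and Ifit3, and the inhibitor Usp18. They were chosen by name, and all 9 of 9 were found among the 22384 genes that the tables of all 4 genotypes share. Of these 9 genes, 7 reached the mean of 1 RPKM (reads scaled to transcript length and library depth) asked of a tested gene, as did 12144 genes in all. Ifit1 and Ifit3 did not. They are described by their levels and were also compared with Irf7 between mice.

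The libraries came from back-skin epidermis of male C57BL/6 mice aged 8 weeks, freed with dispase, under 12 h of light and 12 h of dark with chow at will. The study asked which daily rhythms of the epidermis need a clock in the skin, in the brain or in both. RERE mice carry Arntl stopFL/stopFL with K14Cre tg/wt and Syt10-Cre tg/wt, so the clock gene Arntl is restored in both skin and brain. EpiRE mice carry Arntl stopFL/stopFL, K14Cre tg/wt and Syt10-Cre wt/wt and regain Arntl in the epidermis. BRE mice carry Arntl stopFL/stopFL, K14Cre wt/wt and Syt10-Cre tg/wt and regain it in the brain. WT mice carry Arntl wt/wt with K14Cre wt/tg and Syt10-Cre tg/wt, so they too hold both Cre drivers. K14 drives Cre in keratinocytes and Syt10 in the brain, including the central clock of the hypothalamus, and Arntl is blocked elsewhere in the 3 reconstituted genotypes. Each genotype has 4 mice at each of 6 times, ZT0, ZT4, ZT8, ZT12, ZT16 and ZT20, where ZT0 is lights on, which makes 24 libraries per genotype and 96 in all.

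As a check of the labels, Arntl had medians of 16.6 RPKM in RERE mice, 15.1 in EpiRE mice, 12.9 in BRE mice and 14.7 in WT mice, with a range of 11.4 to 14.6 RPKM in BRE mice and 4.69 to 27.4 RPKM in WT mice; reads counted per gene do not tell the blocked from the open allele. The estimated depth was 11.25 to 32.38 M reads per library, with a median of 16.49 M reads. The 8 keratinocyte markers summed to between 14694 and 24663 RPKM in all libraries. Markers of Langerhans and dendritic cells summed to 78.8, 82.0, 92.9 and 63.5 RPKM (medians in RERE, EpiRE, BRE and WT mice). In the same order 7 T cell markers summed to 19.3, 22.0, 20.5 and 18.8 RPKM, while 5 endothelial markers never passed 0.506 RPKM in sum. Siglech, a marker of plasmacytoid dendritic cells, a source cell type of interferon, ranged from 1.95 to 37.3 RPKM. Ly6d, on the same marker list, is also a keratinocyte gene and was at 815 to 1412 RPKM. Of the other genes on that list, Tcf4 had medians of 6.79 to 8.19 RPKM by genotype and Ccr9 of 0.598 to 0.783 RPKM. Cd300c, Klk1 and Cox6a2 had medians at their lowest value in each genotype, at most 0.182, 0.0975 and 0.190 RPKM.

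Cells detect foreign or misplaced nucleic acid with sensors that switch on the genes for type I interferons. A secreted interferon then acts through its receptor on the complex ISGF3, which holds STAT2 and IRF9 and binds the interferon-stimulated response element (ISRE) in front of a large set of antiviral genes. Many sensors and factors of the system are themselves such genes, and keratinocytes keep a basal level of them without infection.

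The promoters show which of the genes carry the element that this complex reads. RefSeq windows of 300 bases, from 250 before to 50 after the annotated start in build GRCm38.p6, were found for 8 of the 9 genes. The ISRE core was searched on both strands as GAAA, any 2 bases and GAAA again, and 5 of these 8 genes held it, against 3.44% of 32851 promoter windows of all genes. The windows of Stat2, Isg15, Ifit1 and Ddx58 are shown because they hold the core, and that of Mb21d1 because it is the member with the most widely called rhythm and does not. Capitals mark the core; on the shown strand it also reads as its reverse complement, TTTC, 2 bases, TTTC.
Stat2, chr10:128270248-128270547, plus strand: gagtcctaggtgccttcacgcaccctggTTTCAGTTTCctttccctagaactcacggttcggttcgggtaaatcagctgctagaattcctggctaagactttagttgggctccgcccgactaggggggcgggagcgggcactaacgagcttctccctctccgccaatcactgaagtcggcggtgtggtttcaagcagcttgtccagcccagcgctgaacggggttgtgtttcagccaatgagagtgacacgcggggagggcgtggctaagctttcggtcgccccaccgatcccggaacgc
Isg15, chr4:156200769-156201068, minus strand: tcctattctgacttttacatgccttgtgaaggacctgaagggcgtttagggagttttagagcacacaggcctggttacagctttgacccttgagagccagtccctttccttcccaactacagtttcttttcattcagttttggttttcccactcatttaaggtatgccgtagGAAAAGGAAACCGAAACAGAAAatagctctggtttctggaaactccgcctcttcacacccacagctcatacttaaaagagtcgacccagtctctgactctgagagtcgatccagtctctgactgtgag
Ifit1, chr19:34640639-34640938, plus strand: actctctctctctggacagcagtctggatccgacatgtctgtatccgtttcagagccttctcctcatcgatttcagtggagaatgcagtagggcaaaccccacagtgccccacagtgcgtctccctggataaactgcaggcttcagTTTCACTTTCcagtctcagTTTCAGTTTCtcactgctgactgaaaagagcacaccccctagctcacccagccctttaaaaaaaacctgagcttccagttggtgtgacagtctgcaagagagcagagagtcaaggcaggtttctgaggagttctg
Ddx58, chr4:40239776-40240075, minus strand: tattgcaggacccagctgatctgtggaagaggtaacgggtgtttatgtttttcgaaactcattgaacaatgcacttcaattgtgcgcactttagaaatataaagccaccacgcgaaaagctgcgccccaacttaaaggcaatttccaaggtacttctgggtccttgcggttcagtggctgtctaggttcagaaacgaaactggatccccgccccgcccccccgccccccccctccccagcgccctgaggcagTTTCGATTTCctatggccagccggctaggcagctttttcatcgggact
Mb21d1, chr9:78443188-78443487, minus strand: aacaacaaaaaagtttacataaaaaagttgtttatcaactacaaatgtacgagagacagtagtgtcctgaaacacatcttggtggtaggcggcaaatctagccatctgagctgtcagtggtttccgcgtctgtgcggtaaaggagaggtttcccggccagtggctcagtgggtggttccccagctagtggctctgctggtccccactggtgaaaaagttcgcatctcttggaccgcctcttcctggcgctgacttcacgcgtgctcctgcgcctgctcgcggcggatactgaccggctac

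The positions differ between the genes. Isg15 held 3 overlapping cores, beginning 78, 72 and 66 bases before its start, Ifit1 had 2, beginning 104 and 85 bases before the start, and Ifit3 had 2, beginning 156 and 122 bases before it. The core of Stat2 began 222 bases before the start, and that of Ddx58 began 2 bases after it. The windows of Irf7, Irf9 (2 windows) and Mb21d1 held no such letters, which says nothing beyond these windows. The E-box CACGTG, the sequence that the BMAL1 protein binds with its partner, was in 0 of the 8 genes' windows and in 7.15% of all windows.

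The 9 genes stood at very different levels, and the order was much alike in all genotypes. Levels are set side by side here and were not tested, because each genotype's table was normalized by itself. Irf9 was the highest, with medians of 14.5, 14.0, 13.9 and 14.4 RPKM in RERE, EpiRE, BRE and WT mice. Stat2, its partner in ISGF3, had medians of 8.11, 8.22, 7.25 and 7.80 RPKM. Usp18, a protease that strips the ISG15 tag from proteins and blocks the interferon receptor, had medians of 7.04, 8.42, 8.53 and 7.03 RPKM, so its place relative to Stat2 changed with the genotype and their ranges overlapped.

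Isg15, a ubiquitin-like tag, and Mb21d1 came next, with ranges that overlapped in every genotype. Isg15 had medians of 4.11, 3.86, 3.94 and 3.68 RPKM in RERE, EpiRE, BRE and WT mice. Mb21d1 had 3.70, 3.93, 3.90 and 3.75 RPKM. Ddx58 followed with 2.37, 2.45, 3.14 and 2.24 RPKM, and Irf7, the factor that amplifies type I interferon, with 1.36, 1.29, 1.42 and 1.62 RPKM.

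The effectors Ifit1 and Ifit3, which bind foreign RNA and hold back its translation, were the lowest of the set. Ifit1 had medians of 0.370, 0.302, 0.245 and 0.362 RPKM in RERE, EpiRE, BRE and WT mice. Ifit3 stood on few reads: its estimated read number reached at most 5 in a RERE library, 6 in an EpiRE library, 5 in a BRE library and 10 in a WT library. It was 0 in 12, 10, 5 and 9 of 24 libraries. Both genes stayed under the level asked of a tested gene.

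**Figure D1:**
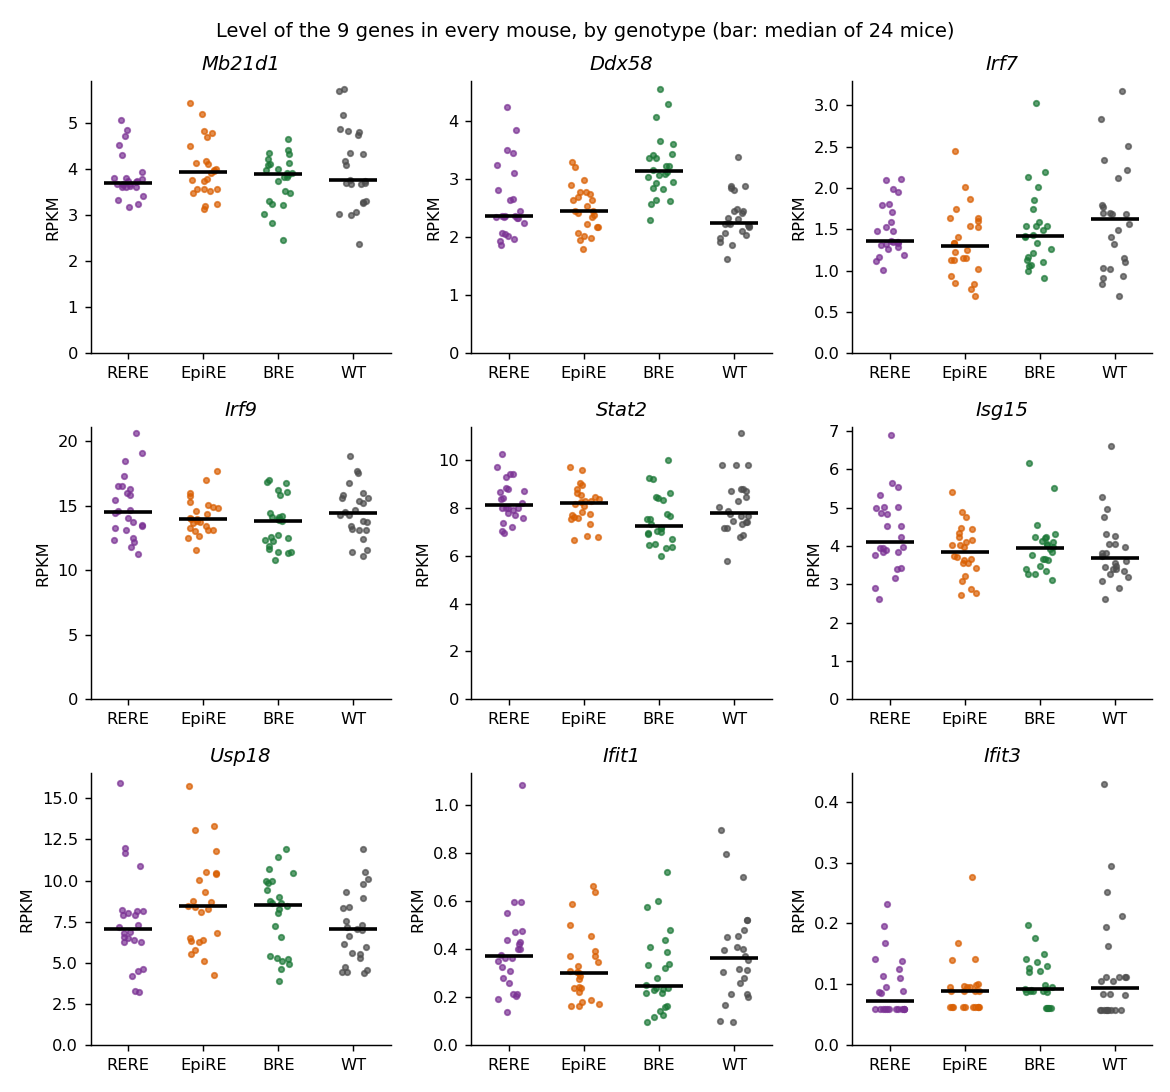
Level in RPKM (linear axis from 0) of the 9 genes in each of 96 mice, grouped as RERE, EpiRE, BRE and WT; each point is 1 mouse and each bar the median of 24. The points of a gene overlap between genotypes; Ddx58 has medians of 3.14 RPKM in BRE mice and 2.24 RPKM in WT mice, and Ifit1 of 0.245 RPKM in BRE mice and 0.362 RPKM in WT mice.

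No interferon gene that could feed the system reached the tested level. Of 19 interferon genes, 0 were tested and 2 exceeded 1 RPKM in any library: Ifnk, the interferon of keratinocytes, reached 1.12 RPKM, and Ifnz reached 1.17 RPKM. Ifnk had medians of 0.406, 0.474, 0.379 and 0.410 RPKM in RERE, EpiRE, BRE and WT mice. Ifnb1 held 1 value in all libraries of a genotype, as genes without reads do. Of the type I receptor chains, Ifnar1 had medians of 6.07, 6.33, 5.98 and 6.29 RPKM and Ifnar2 of 1.87, 1.97, 2.25 and 2.07 RPKM in RERE, EpiRE, BRE and WT mice. The interferon gamma receptor chain Ifngr1 had 83.8, 81.0, 75.2 and 69.0 RPKM.

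Mb21d1 encodes cGAS, the cytosolic DNA sensor that makes the messenger cGAMP; the gene, named Cgas in GENCODE M21, lies at chr9:78430526-78443237 on the minus strand of mm10. It was the member with a called 24 h rhythm in most genotypes: it was higher in the evening and early night than in the morning in RERE, EpiRE and WT mice, and BRE mice did not show this pattern. In bulk tissue, fewer cells of a type and less RNA per cell cannot be told apart, here and in all results that follow.

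The values by mouse show the pattern. At ZT0, Mb21d1 had 3.18, 3.78, 3.33 and 3.93 RPKM in RERE mice, 3.55, 3.53, 3.20 and 3.57 in EpiRE mice, 4.21, 3.88, 3.82 and 3.91 in BRE mice, and 3.74, 3.00, 3.06 and 3.02 in WT mice. At ZT12 it had 3.64, 3.74, 4.29 and 4.84 RPKM in RERE mice, 5.43, 4.81, 5.18 and 4.49 in EpiRE mice, 2.83, 3.02, 3.22 and 3.52 in BRE mice, and 3.27, 4.86, 4.32 and 5.16 in WT mice. Every EpiRE mouse was thus higher at ZT12 than every EpiRE mouse at ZT0, and every BRE mouse was lower at ZT12 than every BRE mouse at ZT0. In RERE and WT mice the mice of both times overlapped.

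The highest time mean of Mb21d1 came at ZT16 in RERE mice, 4.49 ± 0.59 RPKM (SD, n = 4), at ZT12 in EpiRE mice, 4.98 ± 0.41 RPKM, at ZT20 in BRE mice, 4.10 ± 0.21 RPKM, and at ZT16 in WT mice, 4.92 ± 0.59 RPKM. The lowest was 3.56 ± 0.36 RPKM at ZT0 in RERE mice, 3.46 ± 0.18 at ZT0 in EpiRE mice, 3.15 ± 0.30 at ZT12 in BRE mice and 3.17 ± 0.56 at ZT4 in WT mice. BRE mice were thus lowest at the time when EpiRE mice were highest.

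Rhythms were fitted with limma as a 24 h cosine curve. Its size is given as the log2 difference between fitted peak and trough, and calls were made where p, adjusted by Benjamini and Hochberg over all tested genes, was under 0.05. In RERE mice 2 of the 7 tested members were called, against 16.4% of all tested genes. In EpiRE mice 1 of 7 was called, against 2.87%, in BRE mice 1 of 7, against 17.1%, and in WT mice 2 of 7, against 34.4%. The shares over all genes depended on the libraries used. In EpiRE mice the share was 1.56% to 1.87% without ZT0 replicate 4, ZT4 replicate 1, ZT12 replicate 1, ZT16 replicate 1 or ZT16 replicate 4, and 4.53% without ZT16 replicate 3. Without all libraries of 1 replicate number it was as low as 8.51% in RERE mice, 0.0494% in EpiRE mice, 1.74% in BRE mice and 17.0% in WT mice. The median size of the 7 rhythms was 0.28, 0.19, 0.29 and 0.22 log2 in RERE, EpiRE, BRE and WT mice, and over all tested genes 0.18, 0.15, 0.20 and 0.23 log2.

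The rhythm of Mb21d1 was called in RERE mice, with a size of 0.30 ± 0.08 log2 (SE, 24 libraries) and a fitted peak at ZT14.0 (limma, adjusted p = 0.0319). In EpiRE mice it had a size of 0.50 ± 0.07 log2, or 1.41-fold, and peaked at ZT11.8 (limma, adjusted p = 0.00549). In WT mice its size was 0.64 ± 0.13 log2, or 1.56-fold, with the peak at ZT14.7 (limma, adjusted p = 0.00229). In BRE mice the fitted size was 0.29 ± 0.12 log2 with a peak at ZT0.46, and this was not called (limma, adjusted p = 0.166). The calls in EpiRE and WT mice held when any single library was left out. Without all libraries of replicate 2 the call in EpiRE mice was lost (adjusted p = 0.0561), and in RERE mice the call held without replicate 1 and was lost without replicate 2, 3 or 4 (adjusted p up to 0.260).

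The difference between these rhythms was tested itself, with the F test of the genotype by cosine and genotype by sine terms. BRE mice differed from WT mice by a vector of 0.90 ± 0.17 log2 from peak to trough (limma, adjusted p = 0.000890), the single call among 7 members, against 20.2% of all tested genes. EpiRE mice differed from BRE mice by 0.79 ± 0.14 log2 (adjusted p = 0.000491), again 1 of 7 members, against 13.9% of genes. RERE mice differed from BRE mice by 0.58 ± 0.14 log2 (adjusted p = 0.0228), 1 of 7 members, against 4.79% of genes. The calls of BRE against WT and of EpiRE against BRE held when any replicate number was left out, but that of RERE against BRE held only without replicate 1 and gave adjusted p-values up to 0.185 without the others.

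RERE and EpiRE mice were not called apart from WT mice for any member. In RERE against WT 0 of 7 members were called, against 0.453% of genes, and 0 of 7 had an unadjusted p under 0.05. In EpiRE against WT 0 of 7 were called, against 8.51% of genes, and 1 of 7 had an unadjusted p under 0.05. That was Mb21d1, with a difference of 0.43 ± 0.15 log2 (limma, adjusted p = 0.119), and its difference between RERE and WT mice was 0.34 ± 0.15 log2 (adjusted p = 0.467). Missing the threshold does not show that these rhythms were alike.

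Some markers of the tissue's main cell type also had called rhythm differences in these comparisons. Of 8 keratinocyte markers, 4 (Ivl, Itga6, Krt10 and Krt5) differed between BRE and WT mice, against 20.2% of all tested genes. Between EpiRE and BRE mice 3 (Itga6, Ivl and Krt10) differed, against 13.9%, and between RERE and BRE mice 1 (Ivl), against 4.79%. Krt14, Krt1, Lor and Trp63 were called in none of them. Over all times of day, the summed level of the 8 markers was 16176 to 23604 RPKM in BRE mice and 14694 to 24663 RPKM in WT mice, and none of them was near 0. Their part in the differences of Mb21d1 was not tested.

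**Figure D2:**
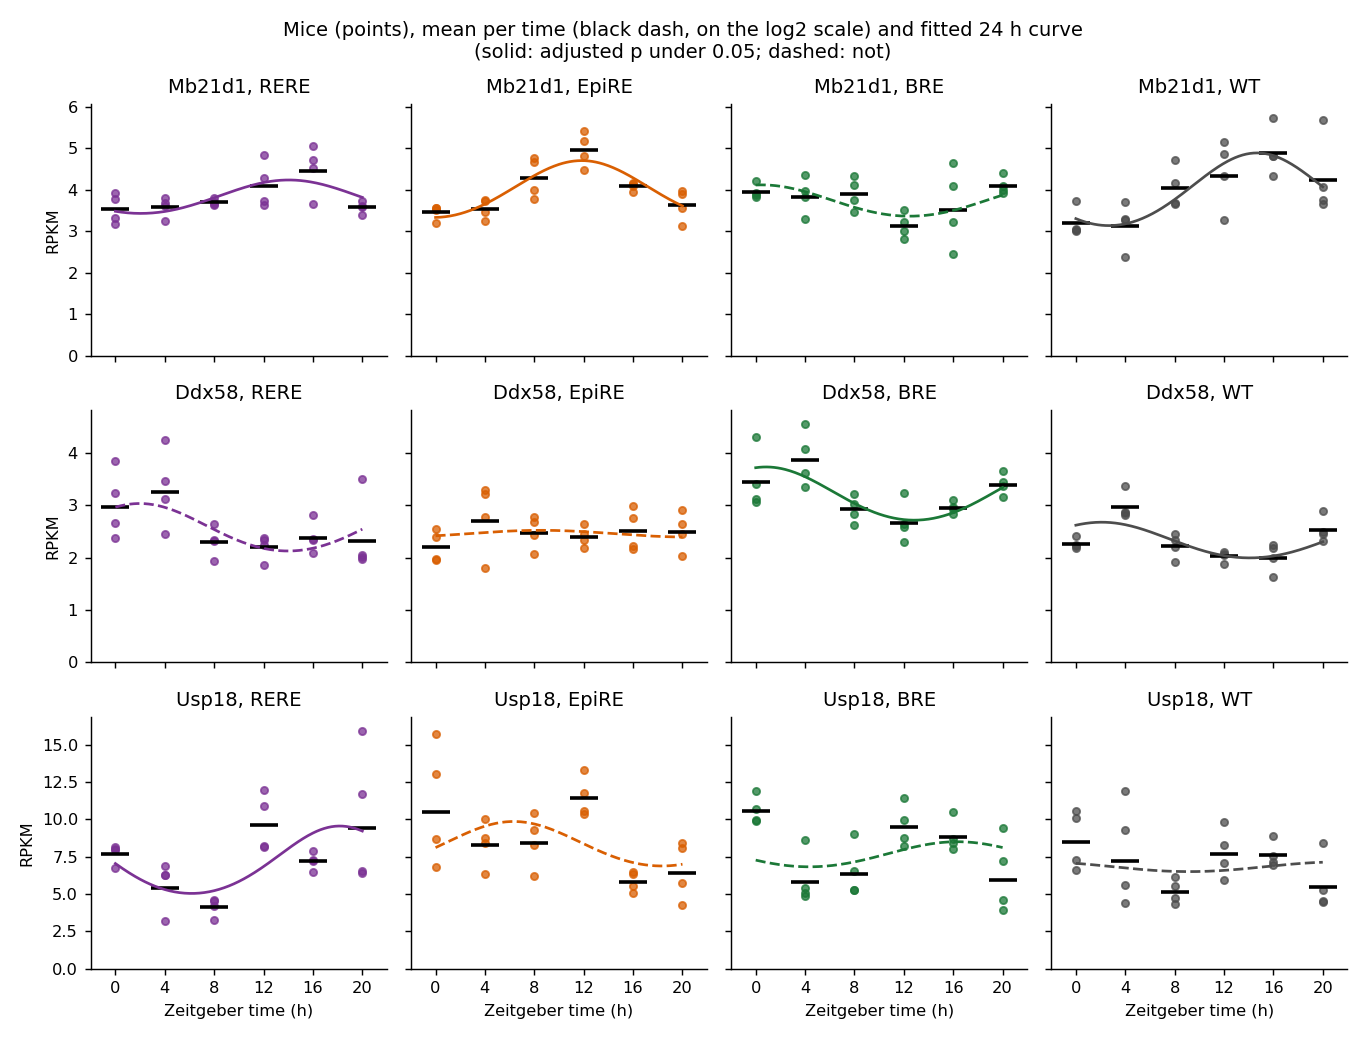
RPKM (axis from 0) of Mb21d1, Ddx58 and Usp18 against zeitgeber time in hours, 1 row per gene and 1 column per genotype (RERE, EpiRE, BRE, WT); points are mice, black dashes the mean of 4 mice on the log2 scale, and curves the fitted 24 h rhythm, solid where called and dashed where not. The mean of Mb21d1 in BRE mice is lowest at ZT12, where EpiRE mice have their highest mean of 4.98 RPKM.

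Ddx58 (chr4:40203773-40239828, minus strand, mm10) encodes RIG-I, the sensor of viral RNA ends. It was higher shortly after lights on than in the evening in BRE and WT mice, and it stood at a higher level in BRE mice than in WT mice through most of the day. At ZT4, the time with the highest mean in each genotype, it had 3.12, 4.24, 2.44 and 3.46 RPKM in RERE mice, 1.80, 2.78, 3.30 and 3.22 in EpiRE mice, 4.55, 3.36, 3.61 and 4.08 in BRE mice, and 3.38, 2.88, 2.85 and 2.82 in WT mice. At ZT12 it had 2.24, 1.86, 2.37 and 2.34 RPKM in RERE mice, 2.19, 2.64, 2.45 and 2.35 in EpiRE mice, 2.30, 2.64, 2.58 and 3.24 in BRE mice, and 2.12, 1.88, 2.07 and 2.05 in WT mice. In RERE, BRE and WT mice all 4 mice at ZT4 were above all 4 at ZT12, and in EpiRE mice they overlapped.

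The fitted rhythm of Ddx58 was called in BRE mice, at 0.46 ± 0.10 log2 with a peak at ZT0.84 (limma, adjusted p = 0.0104), and in WT mice, at 0.42 ± 0.11 log2 with a peak at ZT2.10 (adjusted p = 0.0113). In RERE mice its size was the largest of the 4, 0.51 ± 0.16 log2 with a peak at ZT1.97, but it was not called (adjusted p = 0.0704). In EpiRE mice it was 0.08 ± 0.14 log2 (adjusted p = 0.952). The call in BRE mice was lost without replicate 2 or 3 (adjusted p 0.128 and 0.0883), and that in WT mice without replicate 2, 3 or 4 (adjusted p 0.0533 to 0.0641). T cell markers in BRE mice averaged 26.8, 26.7, 15.6, 13.5, 18.8 and 20.1 RPKM in sum from ZT0 to ZT20, and in WT mice 20.5, 21.3, 11.1, 18.3, 19.2 and 22.0 RPKM. Of 6 tested T cell markers 1, Cd3d, had a called rhythm in BRE mice, against 17.1% of all tested genes. In WT mice 0 had one, against 34.4%. The part of these markers in the rhythm of Ddx58 was not tested. No pair of genotypes was called different: EpiRE against BRE gave 0.50 ± 0.17 log2 (limma, adjusted p = 0.0901), EpiRE against WT 0.44 ± 0.17 log2 (adjusted p = 0.195) and RERE against EpiRE 0.53 ± 0.21 log2 (adjusted p = 0.270). The flat profile in EpiRE mice is therefore a value of that genotype and not a tested difference.

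The level of Ddx58 was set beside that of WT mice at each time. Its mean was higher in BRE mice at 6 of 6 times, and at 5 of them every BRE mouse was above every WT mouse. Among 11831 genes 46, or 0.389%, showed this at 5 or more times (0.397% with all libraries scaled together), and 1 of the 7 members did. At ZT16 it had 2.94, 2.96, 2.83 and 3.10 RPKM in BRE mice, against 1.99, 2.25, 2.18 and 1.63 RPKM in WT mice, with a gap between the groups. At ZT4, the exception, the lowest BRE mouse at 3.36 RPKM was just under the highest WT mouse at 3.38 RPKM.

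Averaged over the day, Ddx58 was 0.46 log2 higher in BRE than in WT mice, a larger difference than that of 98.7% of genes, whose median difference was -0.05 log2. When all 96 libraries were scaled together the difference was 0.50 log2. The value given to genes without reads was 0.106 log2 higher in BRE than in WT mice, which is not a shift of expressed genes. Ddx58 was 0.14 log2 higher in RERE than in WT mice and 0.09 log2 higher in EpiRE than in WT mice. All mice were above all WT mice at 0 of 6 times in RERE mice and at 1 of 6 in EpiRE mice. With all libraries scaled together this was 0 of 6 in EpiRE mice too. At 5 or more times, 0 members stood so in RERE mice, against 0.0676% of genes, and 0 in EpiRE mice, against 0.0845% of genes or 0.0338% with all libraries scaled together. Markers of Langerhans and dendritic cells had median sums of 92.9 RPKM in BRE mice (range 46.8 to 140) and 63.5 RPKM in WT mice (range 43.3 to 111). Of these 9 markers 8 were tested, and Itgax was low, with medians of 0.241 RPKM in BRE mice and 0.180 RPKM in WT mice. Cd74 had the highest medians of these markers, 38.4 RPKM in BRE mice and 27.7 RPKM in WT mice, and Cd207 had 3.62 and 2.03 RPKM. Their part in the level of Ddx58 was not tested.

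No daily rhythm was called for the transcription factors. For Irf7, Irf9 and Stat2, 0 of 12 fits in the 4 genotypes were called. Stat2 came nearest in BRE mice, at 0.27 ± 0.10 log2 (limma, adjusted p = 0.134), and Irf9 in RERE mice, at 0.28 ± 0.12 log2 (adjusted p = 0.220). Irf9 in WT mice (adjusted p = 0.277) became called without replicate 1 (adjusted p = 0.0458). The fitted size of Stat2 was 0.06 ± 0.09, 0.04 ± 0.09 and 0.10 ± 0.12 log2 in RERE, EpiRE and WT mice. Irf7 had a larger fitted size with a larger error, as in WT mice with 0.47 ± 0.33 log2 (adjusted p = 0.487).

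Isg15 was not called in any genotype. Its fitted size was 0.27 ± 0.18 log2 in RERE mice, 0.18 ± 0.15 in EpiRE mice, 0.30 ± 0.12 in BRE mice (limma, adjusted p = 0.172) and 0.22 ± 0.17 in WT mice. The fitted peaks lay in the light phase in RERE, EpiRE and BRE mice, at ZT7.11, ZT4.16 and ZT5.66, and at ZT13.8 in WT mice. The mice of 1 time differed widely: at ZT4, Isg15 had 3.85, 5.53, 2.90 and 5.34 RPKM in RERE mice, 4.47, 5.42, 2.73 and 4.03 in EpiRE mice, 4.06, 6.18, 4.23 and 4.12 in BRE mice, and 3.28, 4.32, 3.46 and 3.08 in WT mice. All groups overlapped.

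**Figure D3:**
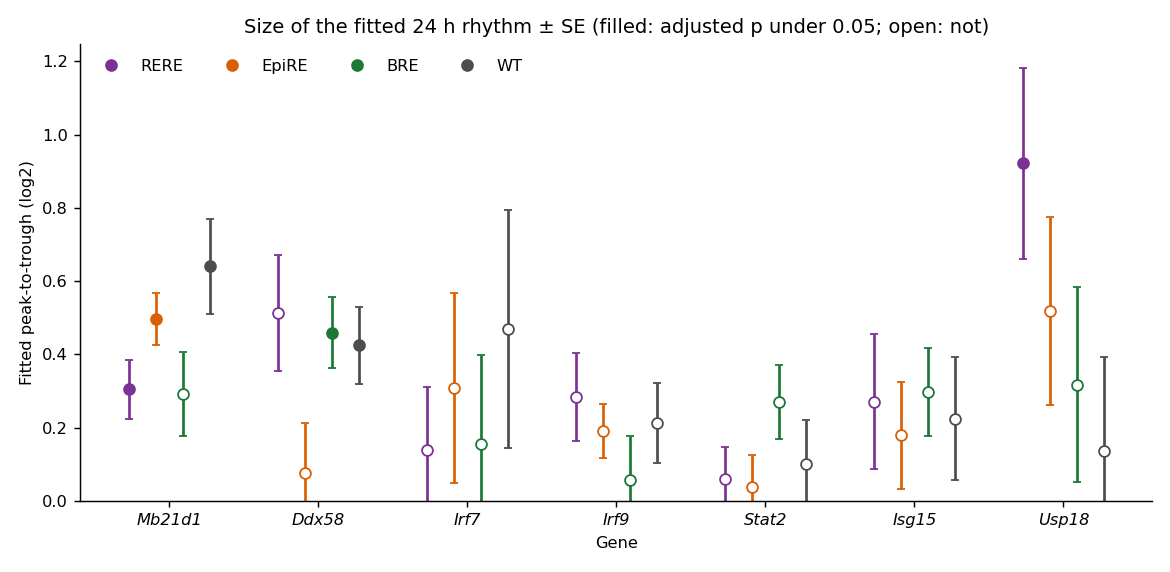
Fitted peak-to-trough size of the 24 h rhythm in log2 units, with bars of 1 SE over 24 libraries, for the 7 tested genes in RERE, EpiRE, BRE and WT mice; filled points are called at an adjusted p under 0.05 and open points are not. The filled points are Mb21d1 in RERE, EpiRE and WT mice, Ddx58 in BRE and WT mice, and Usp18 in RERE mice at 0.92 log2.

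The log2 time means of Usp18 spanned 1.22, 0.97, 0.86 and 0.72 in RERE, EpiRE, BRE and WT mice, the widest of the 7 tested genes except in WT mice, where Irf7 spanned 0.91. The gene lies at chr6:121245906-121270917 on the plus strand of mm10. In RERE mice it had 4.21, 4.64, 3.30 and 4.51 RPKM at ZT8, and 10.9, 8.19, 8.13 and 12.0 RPKM at ZT12, with no overlap between these times. At ZT20 the RERE mice ran from 6.40 to 15.9 RPKM. The means of RERE mice from ZT0 to ZT20 were 7.71, 5.65, 4.16, 9.79, 7.21 and 10.1 RPKM, so ZT16 was lower than both ZT12 and ZT20. In BRE mice the means were high at ZT0, 10.6 ± 0.94 RPKM, and at ZT12, 9.60 ± 1.42 RPKM (SD, n = 4), and low at ZT4, 6.00 ± 1.75 RPKM, and at ZT20, 6.29 ± 2.52 RPKM. EpiRE mice had means of 11.1 ± 4.1 RPKM at ZT0 and 11.5 ± 1.4 RPKM at ZT12, and WT mice had 8.64 ± 1.98 and 7.79 ± 1.65 RPKM at these times.

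The 24 h curve of Usp18 was called in RERE mice, at 0.92 ± 0.26 log2 or 1.89-fold with a peak at ZT18.2 (limma, adjusted p = 0.0449). It was not called in EpiRE mice, at 0.52 ± 0.26 log2 with a peak at ZT6.33 (adjusted p = 0.416), in BRE mice, at 0.32 ± 0.27 log2, or in WT mice, at 0.14 ± 0.26 log2. RERE and EpiRE mice differed by 1.44 ± 0.37 log2 (limma, adjusted p = 0.0416), the 1 call among 7 members, against 4.04% of genes. That call was lost without any 1 of the replicate numbers (adjusted p 0.0965 to 0.187) and with the replicate number as a block (adjusted p = 0.0520). With 6 free time means in place of the curve, Usp18 was called in RERE mice (adjusted p = 0.0159) and BRE mice (adjusted p = 0.0357), and missed the threshold in EpiRE mice (adjusted p = 0.0809) and WT mice (adjusted p = 0.145).

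The call of Usp18 in RERE mice was lost without each of the 4 replicate numbers (adjusted p 0.0562 to 0.184). It held when the library of ZT0 replicate 1, ZT4 replicate 1, ZT12 replicate 1 or 4, ZT16 replicate 1, 2 or 3, or ZT20 replicate 1 or 3 was left out, and it was lost, with adjusted p-values up to 0.0883, when any 1 of the other 15 was. The call of Mb21d1 in RERE mice was lost, with adjusted p-values up to 0.0596, without ZT0 replicate 1 or 3, ZT4 replicate 3, ZT12 replicate 3 or 4, or ZT16 replicate 2, 3 or 4. Ddx58 in RERE mice became called without ZT16 replicate 4 (adjusted p = 0.0451). The fitted sizes stayed between 0.79 and 1.01 log2 for Usp18 and between 0.26 and 0.34 log2 for Mb21d1.

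The authors' deposited table of JTK_CYCLE q-values, a rank test for daily rhythms, gave Mb21d1 a q of 0.0439 in EpiRE mice and 0.0151 in WT mice, and Ddx58 a q of 0.0451 in BRE mice. No other member was under 0.05 in that table, where 8.52%, 0.156%, 5.67% and 20.8% of all tested genes were in RERE, EpiRE, BRE and WT mice. In the authors' deposited table of BIOCYCLE q-values no member was under 0.05, and the lowest was that of Mb21d1 in WT mice at 0.0772. That table held 0 of all tested genes under 0.05 in EpiRE mice and 0 in BRE mice, against 1.56% in RERE mice and 10.0% in WT mice.

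Mice of 1 genotype and time differed in these genes to unequal degrees. The spread of Irf7 between such mice was an SD of 0.31, 0.49, 0.42 and 0.56 log2 in RERE, EpiRE, BRE and WT mice, larger than that of 85.2% of genes in RERE mice, 94.9% in EpiRE mice and 93.0% in BRE mice. Genes of like level had median SDs of 0.30, 0.30, 0.31 and 0.29 log2. At ZT4, Irf7 ran from 1.17 to 1.80 RPKM in RERE mice, from 0.855 to 2.01 in EpiRE mice, from 1.22 to 2.13 in BRE mice and from 1.41 to 3.17 in WT mice. In RERE mice Irf7 was thus near genes of like level, and in the other genotypes above them.

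Usp18 was more variable than genes of like level. Its SD between mice was 0.37, 0.35, 0.34 and 0.39 log2 in RERE, EpiRE, BRE and WT mice, and genes of like level had median SDs of 0.15, 0.14, 0.16 and 0.15 log2. Stat2, at nearly the same level, had SDs of 0.16, 0.16, 0.17 and 0.23 log2. Mb21d1, at 0.14, 0.12, 0.20 and 0.23 log2, was below genes of like level in RERE and EpiRE mice, close to them in BRE mice and above them in WT mice. Those genes had median SDs of 0.19, 0.18, 0.20 and 0.19 log2.

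**Figure D4:**
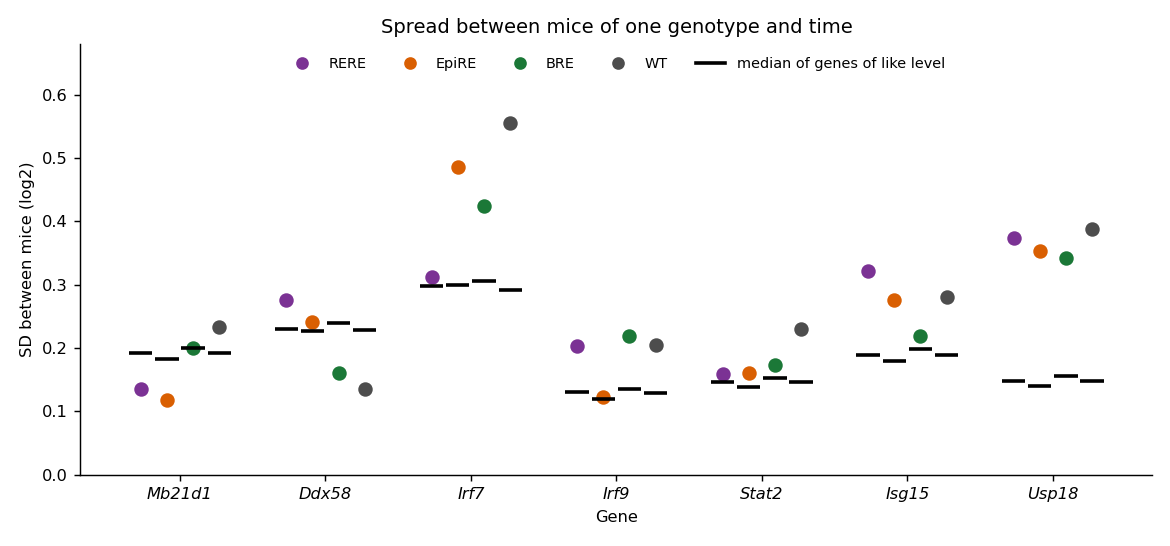
SD in log2 units between the 4 mice of 1 genotype and time, pooled over 6 times, for the 7 tested genes in RERE, EpiRE, BRE and WT mice (points), with the median of tested genes of like level as a black line. Usp18 lies between 0.34 and 0.39 log2, above its lines, Irf7 reaches 0.56 log2 in WT mice and is at 0.31 log2 in RERE mice, close to its line, and Mb21d1 is below its lines in RERE and EpiRE mice.

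Irf7 was compared with each other member over the 24 libraries of a genotype, as deviations from the mean of each time, in 32 relations (Pearson's r and Spearman's rho, two-sided permutation tests of 100000 resamples, adjusted over the 32). Irf7 and Ifit1 moved together in EpiRE mice with r = 0.63 (permutation p = 0.00145, adjusted p = 0.0464) and rho = 0.61 (adjusted p = 0.0517). Ifit1 was under the level asked of a tested gene, with a median of 0.302 RPKM in EpiRE mice. Irf7 and Isg15 did so in WT mice with r = 0.58 (permutation p = 0.00298, adjusted p = 0.0471) and rho = 0.56 (adjusted p = 0.0517). Irf7 and Mb21d1 moved oppositely in WT mice with r = -0.56 (permutation p = 0.00442, adjusted p = 0.0471) and rho = -0.58 (adjusted p = 0.0517). The other 29 relations did not pass. The resamples shuffled deviations across times although the mean of each time had been removed. The permutation p-values of Irf7, here and below, are therefore too small, and the relations that passed lay close to the threshold.

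Without the 2 libraries farthest from the median of Irf7, 0 of 32 relations passed. The values of r were then 0.59 for Ifit1 in EpiRE mice (permutation, adjusted p = 0.0717), 0.49 for Isg15 in WT mice (adjusted p = 0.232) and -0.58 for Mb21d1 in WT mice (adjusted p = 0.0717). In RERE and BRE mice no relation of Irf7 passed, with r between -0.41 and 0.38. Against the summed levels of 8 lists of cell type markers, Irf7 had r between -0.55 and 0.50, and 0 of 32 relations passed (permutation, lowest adjusted p = 0.162).

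Stat2 was the member closest to the rest over all libraries. Its deviations had r = 0.55 with the mean of the other tested members over 96 libraries, and 0.41, 0.67, 0.68 and 0.56 in RERE, EpiRE, BRE and WT mice. In RERE mice Usp18, with r = 0.55, and Ddx58, with r = 0.52, were closer to the rest than Stat2. Mb21d1 had r = -0.04 over 96 libraries, the lowest of the 7 members. These are descriptions without a test, and the points share library and depth.

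Among the genes outside the set whose deviations were most like the members' mean were Gbp2 with r = 0.68, Igtp with r = 0.65, Parp14 with r = 0.59 and Psmb10 with r = 0.57 over 96 libraries, followed by Irgm2, Irgm1, Psmb8, Tap1 and H2-Q6 with r = 0.53 each. Over all tested genes the median r was 0.06, and 1 gene in 100 passed 0.33. Each of these 9 had a positive r in all 4 genotypes. The genes were chosen by r over the same 96 libraries, so this is not an independent result. Gbp2 had r = 0.78, 0.61, 0.64 and 0.66 in RERE, EpiRE, BRE and WT mice, and Igtp had 0.74, 0.46, 0.78 and 0.54. The lowest within a genotype were Tap1 with 0.25 in EpiRE mice and Psmb8 with 0.28, Parp14 with 0.28 and Irgm1 with 0.30 in WT mice.

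**Figure D5:**
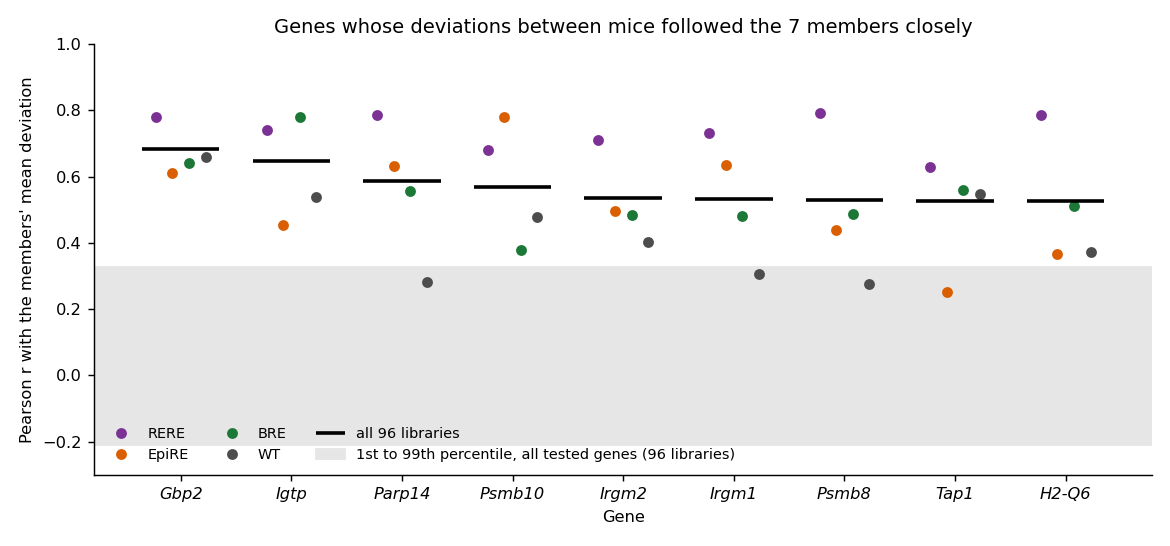
Pearson's r, without a test, between a gene's deviations from its genotype and time mean and the mean standardized deviation of the 7 members, for 9 of the genes most alike; points are RERE, EpiRE, BRE and WT mice (24 libraries each), black lines all 96 libraries, and the grey band the 1st to 99th percentile of tested genes over 96 libraries. All 9 lines lie between 0.53 and 0.68, above the band, which ends at 0.33.

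The wider pathway was described with 8 lists, of which that of the interferon genes held no tested gene. Of 138 genes other than the members, 77 were tested. A rhythm was called for 8 of them in RERE mice, 10.4% against 16.4% of all tested genes, for 1 of 77 in EpiRE mice, against 2.87%, for 10 in BRE mice, 13.0% against 17.1%, and for 12 in WT mice, 15.6% against 34.4%. The difference between these shares was not tested. The shares over all tested genes also stand beside the rhythm counts of each list below, which were not tested against them either.

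Among 6 tested RNA sensors and adaptors, 0 were called in RERE and EpiRE mice, 2 in BRE mice and 2 in WT mice. Ifih1, which encodes the RNA sensor MDA5, was called in BRE mice, at 0.31 ± 0.09 log2 with a peak at ZT1.07 (limma, adjusted p = 0.0460), and in WT mice, at 0.27 ± 0.08 log2 with a peak at ZT5.45 (adjusted p = 0.0366). Eif2ak2, the RNA-activated kinase PKR, was called in BRE mice at 0.34 ± 0.07 log2 with a peak at ZT1.64 (adjusted p = 0.00746). Tlr3, the endosomal sensor of double-stranded RNA, was called in WT mice at 0.46 ± 0.10 log2 with a peak at ZT3.73 (adjusted p = 0.00502). The peaks of Ddx58 in BRE and WT mice were at ZT0.84 and ZT2.10.

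Among 5 tested DNA sensors and adaptors, Ddx41 in WT mice was the 1 called fit, at 0.27 ± 0.05 log2 with a peak at ZT19.1 (limma, adjusted p = 0.00227). Of 11 kinases and factors that induce interferon, RERE mice had 2 called (Irak4 and Traf3), EpiRE mice 0, BRE mice 1 (Ikbke) and WT mice 1 (Traf3). Traf3, an adaptor of the sensors, peaked near lights on in RERE mice, at ZT0.38 with 0.48 ± 0.12 log2 (adjusted p = 0.0269), and at ZT22.4 with 0.40 ± 0.08 log2 in WT mice (adjusted p = 0.00285). Its rhythm differed between EpiRE and WT mice, between RERE and EpiRE mice and between EpiRE and BRE mice.

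Of 9 receptors and JAK kinases, Ifngr2 was called in RERE mice, at 0.41 ± 0.08 log2 (limma, adjusted p = 0.00313), and Ifngr1 in WT mice, at 0.57 ± 0.16 log2 (adjusted p = 0.0261). Of 4 further STAT and IRF factors, Stat3 was the 1 called, in BRE mice at 0.30 ± 0.08 log2 (adjusted p = 0.0392). Of 10 negative regulators, RERE mice had 2 called, Ptpn6 and Pias1, against 16.4% of all tested genes. EpiRE, BRE and WT mice had 0, against 2.87%, 17.1% and 34.4%.

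Of 33 other interferon-stimulated genes, 3 were called in RERE mice, 1 in EpiRE mice, 6 in BRE mice and 7 in WT mice. In RERE mice these were Ifitm3 and Ifitm2, membrane proteins that hinder virus entry, at 0.67 ± 0.11 and 0.46 ± 0.09 log2, and Ifi27l2a at 1.32 ± 0.27 log2. Tap1, the transporter that loads peptides for antigen display, was called in EpiRE, BRE and WT mice, at 0.23 ± 0.05, 0.33 ± 0.07 and 0.26 ± 0.07 log2.

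Called rhythm differences among the 77 tested list genes are set beside the shares over all tested genes. In RERE against WT 0 of 77 were called, against 0.453%, and in EpiRE against WT 1 (Traf3), against 8.51%. In BRE against WT 4 (Gbp2, Ifi35, Parp14 and Psmb8) were called, against 20.2%. In RERE against EpiRE 5 were called, against 4.04%. In RERE against BRE 1 (Ifngr2) was called, against 4.79%, and in EpiRE against BRE 7, against 13.9%. The share in the lists was above that of all tested genes in RERE against EpiRE and below it in the other pairs. These counts were not tested against those of all genes. The comparisons share groups of mice and are not independent of each other.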

How the data were processed

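Poly(A) RNA of 96 epidermis libraries was measured by stranded RNA-seq. Per the submitters' processing notes, the authors used Trimmomatic 0.36, HISAT2 2.2.1, SAMtools 1.3.1, featureCounts 1.6.0 and edgeR, with mm10. The deposited log2 values, 1 table per genotype, carry no unit label and were read as log2 RPKM with a prior count of 2; each table was normalized apart from the others. The deposited q-values of JTK_CYCLE and BIOCYCLE were copied. The 96 sample columns of the JTK_CYCLE tables were not used. RPKM printed here is 2 to the power of the deposited value, so a gene without reads has a value above 0. Depth was estimated from the spacing of low values. Precision is limited by 4 mice per time.

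Rhythms and rhythm differences were fitted with limma 3.58.1 in R 4.3.3 (mean-variance trend) on the 12144 genes averaging 1 RPKM or more over all libraries, with 24 libraries per genotype and 48 per pair, and the fits were tested on simulated data. Of these genes 313 hold a single value in all libraries of a table. Shares of called genes and median rhythm sizes use all 12144, and descriptions of spread, level and likeness over all genes use the other 11831. Without the 313, RERE against WT had 23 called genes in place of 55. Alternatives covered scaling, scale, filter, replicate block, variance prior, free time means and left-out libraries. The members and gene lists were chosen with earlier results of these data known. All members are named; per list and comparison up to 4 called genes with the smallest adjusted p are, and genes most like the members are the 10 highest r, predicted genes passed over; 1 of these 10 is not reported here. Rnf213 and 3 T cell markers were not analysed here.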

Additional observations from a re-analysis of the deposited data

Results flagged for a closer look

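The rhythm of Mb21d1 differed between BRE and WT mice (limma, adjusted p = 0.000890), between EpiRE and BRE mice (adjusted p = 0.000491) and between RERE and BRE mice (adjusted p = 0.0228), and that of Usp18 between RERE and EpiRE mice (adjusted p = 0.0416), each by a test of the difference itself. In the pathway lists, the same test gave adjusted p-values in BRE against WT of 0.00412 for Ifi35, 0.0226 for Parp14, 0.0262 for Psmb8 and 0.0280 for Gbp2. Traf3 had 0.00307 in EpiRE against WT. In RERE against EpiRE the values were 0.00616 for Traf3, 0.0121 for Ifitm2, 0.0190 for Gbp2, 0.0245 for Igtp and 0.0491 for Nlrx1, and in RERE against BRE 0.0210 for Ifngr2. In EpiRE against BRE they were 0.00427 for Ikbke, 0.00469 for Traf3, 0.0267 for Ifitm2, 0.0334 for Adar, 0.0399 for Psmb8 and 0.0415 for Tap1.

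Of 168 groups of 4 mice (7 tested genes, 4 genotypes and 6 times), 13 held a mouse far from the other 3 by Dixon's criterion, 7.74%, where chance gives about 1 in 20. Single high mice were Irf9 in RERE at ZT0 (replicate 3, 14.6 RPKM, the others at most 12.5), Stat2 in RERE at ZT12 (replicate 4, 8.41, the others at most 8.02) and Ddx58 in RERE at ZT20 (replicate 2, 3.51, the others at most 2.06). Further high mice were Stat2 in BRE at ZT4 (replicate 4, 8.46), Isg15 in BRE at ZT4 (replicate 2, 6.18), Mb21d1 in WT at ZT0 (replicate 1, 3.74), Ddx58 in WT at ZT4 (replicate 1, 3.38) and Stat2 in WT at ZT12 (replicate 2, 11.1, the others at most 7.15). Single low mice were Usp18 in RERE at ZT0 (replicate 4, 6.78) and at ZT4 (replicate 3, 3.20, the others at least 6.26), Mb21d1 in EpiRE at ZT0 (replicate 3, 3.20), Irf7 in EpiRE at ZT20 (replicate 2, 0.691) and Irf7 in WT at ZT8 (replicate 1, 1.02). The library of RERE ZT20 replicate 2 also held the highest Usp18 value, 15.9 RPKM.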

How the results depend on the processing

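Scaling by median of ratios, the log2(RPKM + 1) scale, a robust variance prior and leaving out genes constant in a table (chosen after seeing the data) changed no count of called members. With no filter on low values 0 members were called in RERE mice and 0 in RERE against EpiRE. With a mean of at least 5 RPKM only Irf9, Stat2 and Usp18 were tested: 1 was called in RERE mice and 0 in EpiRE, BRE and WT mice and in BRE against WT, RERE against BRE and EpiRE against BRE. With free time means 1 was called in RERE mice, 2 in BRE mice and 0 in RERE against BRE. The replicate numbers did not pair the mice (median correlation of same-numbered libraries -0.04 to 0.05), and the fit with the replicate block gave 0 members in RERE against EpiRE and no other change in these counts; over all genes it gave 4 calls in RERE against WT, where the fit without the block gave 55. Leaving out replicates or single libraries gave 0 to 2 called members in RERE mice, 0 to 1 in EpiRE mice, 0 to 1 in BRE mice, 1 to 3 in WT mice. Between genotypes only replicate numbers were left out, which gave 0 in each case in RERE against EpiRE and 0 to 1 in RERE against BRE. Of the relations of Irf7, 0 passed without the 2 farthest libraries and 3 after rescaling, when Irf9 in WT mice (r = 0.58, permutation, adjusted p = 0.0333) stood in place of Mb21d1. The cause was not tested. All 36 median levels moved by less than 1 SD when the libraries were scaled together. Ifit1 and Ifit3 are limited by depth.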
